A study of Mus musculus with 10 samples.

Results

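The genes of mitosis and the spindle described here are 46 genes whose products drive entry into mitosis, condense and hold chromosomes, build and monitor the spindle, and separate the daughter cells. They were taken by gene symbol from a list of well-known mitotic genes, and for each the brightest of the probes that were well above background in a whole group of 5 arrays was used. All 46 were on the array and all 46 passed this filter, out of 13204 genes that passed it, and each was well above background on all 10 arrays. Total RNA came from 10 cell lines, each expanded from a single clone of mouse small cell lung cancer without neuroendocrine features and hybridised to 1 array. The labels call 5 of the lines Mes and the other 5 Epi and do not spell out either name. The genetic background given for both groups is RbL/L, Trp53L/L, in which L/L commonly stands for alleles flanked by loxP sites, here of 2 tumour suppressor genes. The cells were grown in RPMI1640 with 10% FBS without treatment. The labels do not say which Cre acted on these alleles or whether the lines came from separate tumours, and p-values here cover no more than the spread between the 10 lines. In bulk RNA from cultures, fewer cells in mitosis and less RNA per mitotic cell cannot be told apart.

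Entry into mitosis is driven by Cdk1, a kinase that is active only when bound to an A-type or B-type cyclin and after phosphatases of the Cdc25 family have removed its inhibitory phosphates. Aurora and Polo-like kinases then act on centrosomes, chromosomes and kinetochores, the spindle checkpoint holds back the anaphase-promoting complex until kinetochores are attached, and separase cuts the cohesin that joins sister chromatids. Most of these genes are transcribed late in the cell cycle, and many of their promoters carry a short element, the cell cycle genes homology region (CHR), bound by the MuvB complex, often together with CCAAT boxes bound by NF-Y. MuvB joins the retinoblastoma-related proteins p107 and p130 in resting cells and B-Myb and Foxm1 in dividing cells, so that these genes are silent in the former and transcribed in the latter.

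The promoters of 6 of the genes are printed to show these elements. They are those of the 4 genes with the largest differences between the groups (Ccnb2, Kif23, Cdc25b and Cdca8) and those of Ccnb1 and Cdk1, whose products form the kinase that drives mitosis and which did not pass the test. Each window runs 5′ to 3′ on the strand of the gene from 250 bases before to 50 bases after its start and was copied from a RefSeq promoter table of GRCm38.p6. Capitals mark CHR words, here TTTGAA and the variant word TTCGAA, and CCAAT words, each searched on either strand, so that a CCAAT word on the opposite strand reads ATTGG. The variant CHR word is its own reverse complement, and in Cdca8 a CHR word and a CCAAT word share 1 base.
Ccnb2: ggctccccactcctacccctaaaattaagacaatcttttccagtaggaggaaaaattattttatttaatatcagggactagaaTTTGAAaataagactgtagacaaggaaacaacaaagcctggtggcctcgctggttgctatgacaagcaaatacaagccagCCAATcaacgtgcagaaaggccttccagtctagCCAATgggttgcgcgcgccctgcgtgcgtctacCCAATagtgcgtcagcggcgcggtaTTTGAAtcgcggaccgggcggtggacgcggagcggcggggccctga
Kif23: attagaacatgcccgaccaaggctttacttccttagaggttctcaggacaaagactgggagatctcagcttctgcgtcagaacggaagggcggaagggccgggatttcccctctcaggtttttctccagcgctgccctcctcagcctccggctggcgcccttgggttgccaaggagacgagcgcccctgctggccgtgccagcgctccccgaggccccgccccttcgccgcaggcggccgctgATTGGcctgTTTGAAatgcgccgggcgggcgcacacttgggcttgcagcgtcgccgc
Cdc25b: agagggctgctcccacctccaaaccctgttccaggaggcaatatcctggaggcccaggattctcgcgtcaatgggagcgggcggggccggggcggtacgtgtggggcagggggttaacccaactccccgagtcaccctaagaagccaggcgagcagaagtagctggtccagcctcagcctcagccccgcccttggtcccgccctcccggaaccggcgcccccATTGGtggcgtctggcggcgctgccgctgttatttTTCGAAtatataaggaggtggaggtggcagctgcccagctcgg
Cdca8: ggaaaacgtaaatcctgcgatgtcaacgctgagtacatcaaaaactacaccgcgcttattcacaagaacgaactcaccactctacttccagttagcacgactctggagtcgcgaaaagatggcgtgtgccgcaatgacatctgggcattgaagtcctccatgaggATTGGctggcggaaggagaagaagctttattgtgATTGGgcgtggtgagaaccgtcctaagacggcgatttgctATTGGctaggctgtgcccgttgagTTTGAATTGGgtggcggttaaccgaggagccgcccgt
Ccnb1: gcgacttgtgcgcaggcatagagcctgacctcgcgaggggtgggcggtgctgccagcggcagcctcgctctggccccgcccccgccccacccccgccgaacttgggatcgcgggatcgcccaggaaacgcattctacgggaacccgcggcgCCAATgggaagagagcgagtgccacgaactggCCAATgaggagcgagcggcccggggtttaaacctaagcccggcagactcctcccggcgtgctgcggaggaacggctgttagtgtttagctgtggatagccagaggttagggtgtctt
Cdk1: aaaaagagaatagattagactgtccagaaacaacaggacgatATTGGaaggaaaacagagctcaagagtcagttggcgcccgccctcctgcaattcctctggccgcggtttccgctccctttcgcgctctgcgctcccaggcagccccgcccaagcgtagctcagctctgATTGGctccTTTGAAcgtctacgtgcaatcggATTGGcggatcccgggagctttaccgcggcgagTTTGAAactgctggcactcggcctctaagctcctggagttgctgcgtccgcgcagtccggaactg
On GRCm38.p6 these windows lie at chr9:70421505-70421804 (Ccnb2, minus strand), chr9:61946750-61947049 (Kif23, minus strand), chr2:131186698-131186997 (Cdc25b, plus strand), chr4:124936868-124937167 (Cdca8, minus strand), chr13:100786437-100786736 (Ccnb1, minus strand) and chr10:69352863-69353162 (Cdk1, minus strand). With the first base of the gene counted as 0, CHR words began at -167 and 4 in Ccnb2, at 2 in Kif23, at 7 in Cdc25b, at 13 in Cdca8 and at -71 and -15 in Cdk1. Neither TTTGAA nor TTCGAA was in the Ccnb1 window, which held CCAAT words at -99 and -67. Other forms of the CHR were not searched, so this does not show that Ccnb1 lacks one.

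The table held 41 windows for 38 of the 46 genes. CHR words were in 32 of the 41 windows (78.0%) and in 19.2% of the 32851 windows of all genes. Between 100 bases before the start and 50 after it, the shares were 70.7% and 8.59%. CCAAT words were in 78.0% of the windows of the mitosis genes and in 37.4% of all windows, and both words together in 70.7% and 7.52%. An E2F word (TTCGCGC, TTTCCCGC or TTTGGCGC on either strand) was in 7.32% and 3.06%. Genes that were higher in Mes lines and genes that did not pass the test both carried CHR words in most windows, 13 of 15 (86.7%) and 19 of 26 (73.1%). A word match is a description of these letters and not a binding site.

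The arrays fell on 3 slides. Slide 1 held Epi1, Epi3, Epi4 and Epi5, slide 3 held Mes1, Mes2 and Mes5, and slide 2 held Mes3, Mes4 and Epi2. Slide 2 was thus the slide with lines of both groups, and its difference (mean of Mes3 and Mes4 minus Epi2) is given beside the results as the value within a slide. Some lines were close to each other: across all probes Mes2 and Mes3 correlated at 0.9857 and Epi3, Epi4 and Epi5 at 0.9806 to 0.984, while no other pair passed 0.9691. Between 60.4% and 64.4% of 41174 probes were well above background per array and no spot was saturated. Of the markers, the mesenchymal genes Vim, Fn1, S100a4 and Cdh2 were above background on all arrays of both groups, whereas of the epithelial genes Epcam was above it on no array, Cdh1 on 0 Mes and 3 Epi arrays, Krt8 on 0 and 4, Krt18 on 4 and 5 and Krt19 on 2 and 5. Of the neuroendocrine markers, Insm1 and Neurod1 were above background on no array, while Syp and Ncam1 were on all 10, Chga on 1 Mes and 2 Epi arrays and Calca on 3 Mes and 0 Epi arrays. Of the 5 leukocyte markers, Lyz2 was above background on no array, Ptprc on 0 Mes and 1 Epi arrays, Cd79a on 4 and 1, and Cd3e and Cd68 on all 10. Of the 4 endothelial markers, Pecam1, Cdh5 and Tie1 were above background on no array and Kdr on 4 Mes and 2 Epi arrays. The summed level of the 5 leukocyte markers was 6.37 to 6.84 in Mes and 5.70 to 6.22 in Epi lines (log2), and that of the 4 endothelial markers 2.65 to 4.68 and 2.52 to 5.68. The leukocyte sum was thus higher in every Mes line, with Cd68 at a mean of 5.75 in Mes and 4.49 in Epi lines, and its part in the results was not tested.

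Mitosis genes were higher in Mes lines or not distinguishable between the groups, and none was lower. In the fit of all probes with limma, 19 of the 46 (41.3%) were higher in Mes lines at an adjusted p under 0.05, 0 were lower and 27 did not pass. Among all 13204 genes, 15.7% were higher and 12.7% lower by the same rule. At an unadjusted p under 0.05, 27 of the 46 were higher and 0 lower, and the share of all genes was not counted at that threshold. The Mes minus Epi difference was positive for 41 of the 46 and its median was 0.56 on the log2 scale, against 0.03 over all genes. The 19 differences that passed ran from 0.56 to 1.44, which is 1.47-fold to 2.72-fold. All 5 Mes lines lay above all 5 Epi lines for 7 of the 46 (Ccnb2, Kif23, Cdc25b, Cdca8, Ttk, Kif2c and Ncaph) and below them for 0, where 10.6% and 8.31% of all genes did so. Within slide 2 the difference was smaller, with a median of 0.19 over the 46 and 33 positive. Over the 19 genes that passed, its median was 0.45 and 17 were positive. For genes that passed and whose value is not given below, it was 0.70 for Smc2, 0.67 for Spc24, 0.62 for Ttk and 0.47 for Ncapg. It was 0.46 for Smc4, 0.45 for Ccna2, 0.39 for Kif2c and 0.37 for Cdca8. For Aurka it was 0.36, for Bub1b 0.35, for Nek2 0.32 and for Top2a 0.20. With slide as a fixed block in the limma fit, 0 of the 46 passed and 0.47% of all genes were higher, both at an adjusted p under 0.05. At an unadjusted p under 0.05, 2 of the 46 were higher in that fit, and the share of all genes was not counted. Slide and group can be told apart only through the 3 lines of slide 2.

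**Figure D1:**
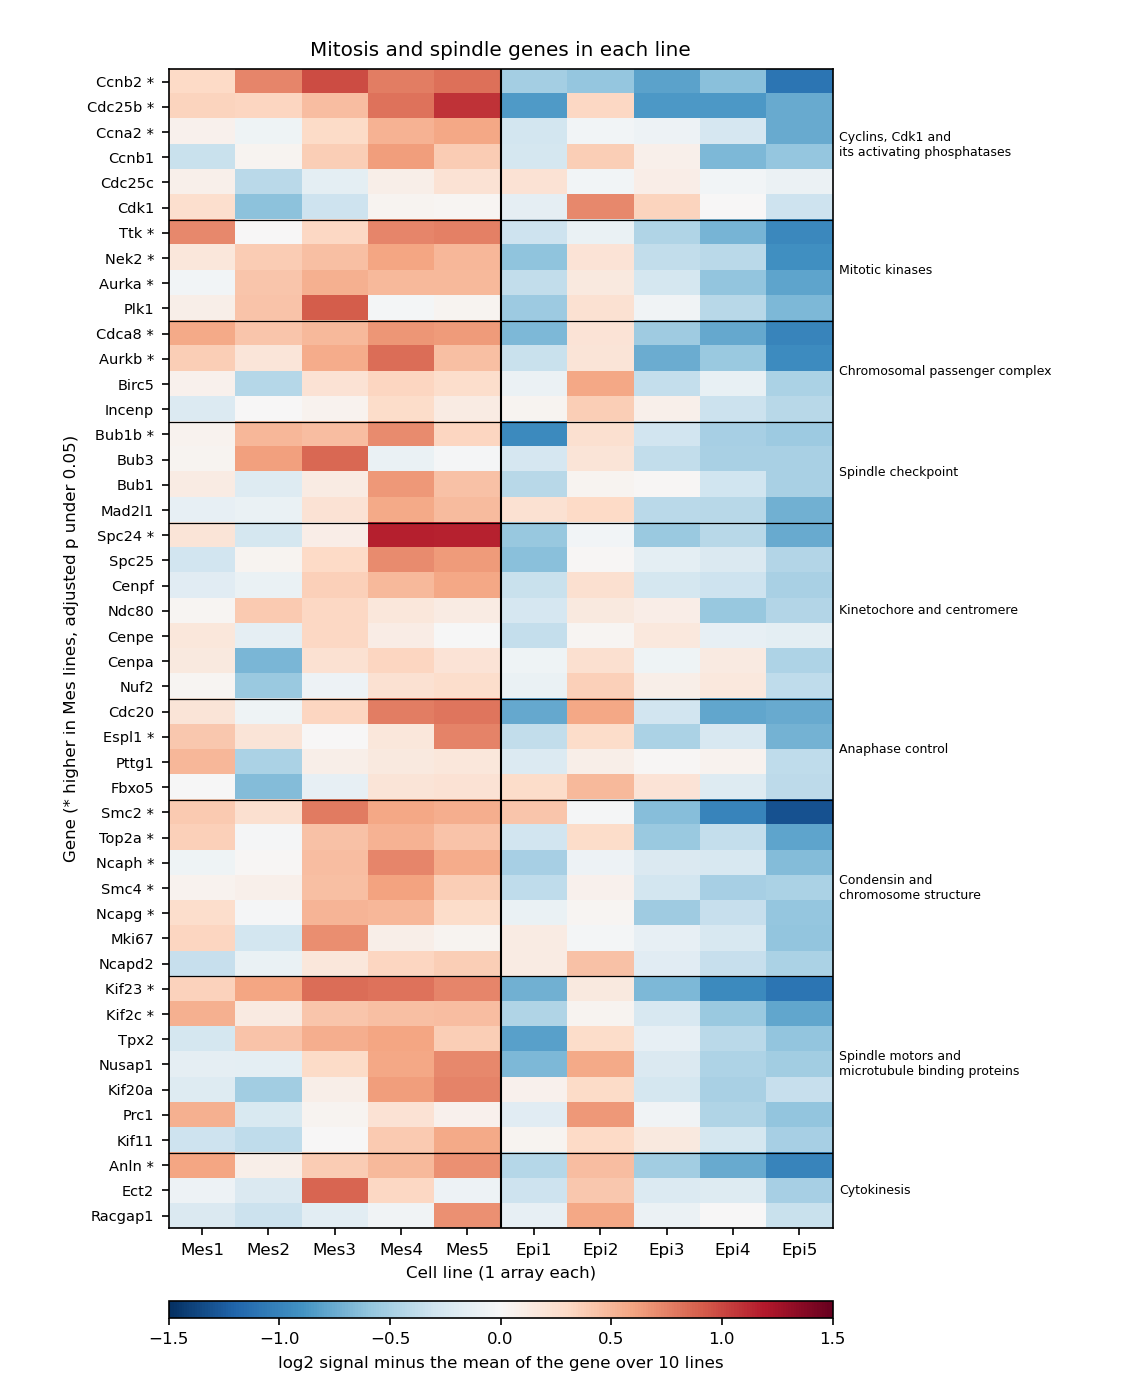
Each row is 1 of the 46 genes, grouped by role, and each column 1 line. Colour gives the log2 signal minus the mean of the gene over the 10 lines, and an asterisk marks the 19 genes higher in Mes lines at an adjusted p under 0.05. Epi5 lies below the mean for all 46 genes, whereas Epi2 lies above it for 38, nearer to the Mes lines Mes3, Mes4 and Mes5 than the other Epi lines do.

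Of the cyclins, Cdk1 and the Cdc25 phosphatases that activate it, 3 of 6 (50%, beside 15.7% of all genes) were higher in Mes lines, with a median difference of 0.50. Ccnb2 encodes cyclin B2, a partner of Cdk1 that sits largely at the Golgi. Ccnb2 signal was 14.12, 14.55, 14.80, 14.58 and 14.64 in Mes1 to Mes5 and 13.31, 13.24, 13.02, 13.18 and 12.72 in Epi1 to Epi5 (log2). The groups were separated by more than the range of either, with Mes1 the lowest Mes line and Epi1 the highest Epi line. The difference was 1.44 ± 0.17 (SE, adjusted p = 0.00049), or 2.72-fold, and it was 1.45 on slide 2. Cdc25b, a phosphatase that starts Cdk1 activation at centrosomes, gave 12.31, 12.30, 12.44, 12.78 and 13.06 in the Mes lines and 11.12, 12.29, 11.12, 11.11 and 11.22 in the Epi lines. Epi2 all but reached the lowest Mes lines, while the other Epi lines lay more than 1 unit lower. The difference of Cdc25b was 1.21 ± 0.26 (SE, adjusted p = 0.0077), all 3 of its probes passed, and on slide 2 it was 0.32. Ccna2 encodes cyclin A2, which acts with Cdk2 in S phase and with Cdk1 in G2. Ccna2 signal was 13.85, 13.72, 14.07, 14.30 and 14.36 in Mes lines against 13.51, 13.74, 13.71, 13.53 and 13.03 in Epi lines, with Mes2 just below Epi2. Its difference of 0.56 ± 0.18 (SE, adjusted p = 0.0438) did not pass when any 1 of Mes3, Mes4, Mes5, Epi1, Epi3, Epi4 or Epi5 was left out (adjusted p up to 0.0967) or with 75th percentile scaling (0.172).

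The other cyclin B and the kinase itself did not pass. Ccnb1, which encodes cyclin B1, the main partner of Cdk1 at mitotic entry, gave 11.08, 11.45, 11.78, 12.04 and 11.79 in Mes lines and 11.15, 11.78, 11.49, 10.73 and 10.83 in Epi lines. The groups overlapped widely, with Mes1 below 3 of the 5 Epi lines. Its difference was 0.43 ± 0.24 (SE, adjusted p = 0.208), and its other 2 probes gave 0.67 and 0.69 without passing. Cdk1 signal was 11.32, 10.47, 10.76, 11.12 and 11.11 in Mes lines and 10.94, 11.80, 11.41, 11.08 and 10.77 in Epi lines. Epi2 was the highest and Mes2 the lowest of the 10 lines. The Cdk1 difference was -0.24 ± 0.23 (SE, adjusted p = 0.449), on slide 2 it was -0.86, and the median of all 602 genes tested on its chromosome, chromosome 10, was -0.46. Cdc25c, another activating phosphatase, averaged 8.63 ± 0.25 in Mes and 8.69 ± 0.12 in Epi lines (SD, n = 5 each, adjusted p = 0.773), and its other probe had the opposite sign.

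**Figure D2:**
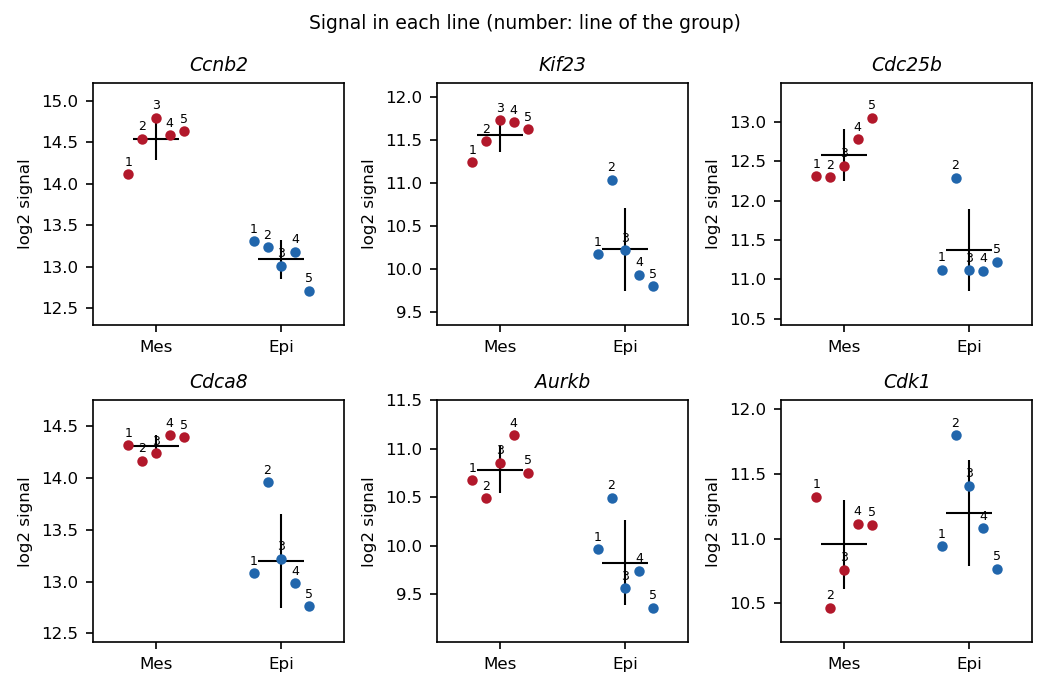
Log2 signal of 6 genes (vertical axis, its own range per gene) in the 5 Mes lines (red) and 5 Epi lines (blue). Numbers are the lines of the group, and the bar and whiskers are the mean and SD. Ccnb2, Kif23, Cdc25b and Cdca8 do not overlap between the groups, Aurkb overlaps by Epi2 alone, and Cdk1 is highest in Epi2.

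Of 4 kinases that act at centrosomes, the spindle and the checkpoint, 3 (75%, beside 15.7% of all genes) were higher in Mes lines. Ttk (Mps1), the kinase that starts the spindle checkpoint at kinetochores, gave 7.37, 6.65, 6.96, 7.38 and 7.41 in Mes lines and 6.34, 6.55, 6.19, 5.94 and 5.68 in Epi lines. The lowest Mes line, Mes2, lay just above the highest Epi line, Epi2. Its difference was 1.01 ± 0.21 (SE, adjusted p = 0.0066). Nek2, which helps centrosomes separate, gave 10.84, 11.05, 11.12, 11.26 and 11.16 against 10.06, 10.88, 10.29, 10.26 and 9.74, so that Epi2 lay just above Mes1. The Nek2 difference was 0.84 ± 0.20 (SE, adjusted p = 0.0118). Aurka encodes Aurora A, the kinase of centrosome maturation. Aurka signal was 13.47, 13.92, 14.04, 14.00 and 13.99 in Mes lines and 13.14, 13.66, 13.24, 12.91 and 12.72 in Epi lines, with Mes1 below Epi2. Its difference of 0.75 ± 0.19 (SE, adjusted p = 0.0174) gave an adjusted p of 0.053 with 75th percentile scaling. Plk1, the Polo-like kinase of mitotic entry and cytokinesis, gave 13.21, 13.55, 14.03, 13.09 and 13.16 against 12.58, 13.35, 13.07, 12.70 and 12.45. Epi2 lay above 3 Mes lines, and the difference of 0.58 ± 0.23 (SE) did not pass (adjusted p = 0.0865).

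The chromosomal passenger complex, in which Aurora B works with 3 partners to correct faulty attachments, had 2 of 4 subunits higher (50%, beside 15.7% of all genes). Cdca8, which encodes borealin, a subunit that places the complex at the centromere, gave 14.32, 14.17, 14.24, 14.42 and 14.40 in Mes lines and 13.08, 13.96, 13.22, 12.99 and 12.76 in Epi lines. The Mes lines lay within 0.25 of each other, and Epi2 was the one Epi line close to them. The difference of Cdca8 was 1.11 ± 0.21 (SE, adjusted p = 0.0041), and all 3 of its probes passed. Aurkb, the gene of the kinase Aurora B, gave 10.67, 10.49, 10.86, 11.14 and 10.75 against 9.97, 10.50, 9.56, 9.74 and 9.36, so that Epi2 and Mes2 were level. Its difference was 0.96 ± 0.22 (SE, adjusted p = 0.0101), and on slide 2 it was 0.50. Birc5 (survivin) averaged 14.85 ± 0.31 in Mes and 14.67 ± 0.41 in Epi lines, and the scaffold Incenp 14.16 ± 0.18 and 14.06 ± 0.32 (SD, n = 5 each). Neither passed (adjusted p = 0.582 and 0.684), and on slide 2 both differences were below 0 (-0.32 and -0.20).

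Of the 4 spindle checkpoint genes, Bub1b alone passed (25%, beside 15.7% of all genes). Bub1b encodes BubR1, part of the complex that inhibits Cdc20. Bub1b signal was 11.30, 11.76, 11.72, 11.96 and 11.58 in Mes lines and 10.29, 11.49, 10.97, 10.75 and 10.70 in Epi lines, where Epi2 lay above Mes1. Its difference was 0.82 ± 0.22 (SE, adjusted p = 0.0195). The other 3 gave positive differences that did not pass: 0.56 for Bub3 (13.43 ± 0.43 in Mes and 12.86 ± 0.28 in Epi lines), 0.46 for Bub1 (11.00 ± 0.32 and 10.54 ± 0.24) and 0.41 for Mad2l1 (10.93 ± 0.32 and 10.51 ± 0.45, SD, n = 5 each). Their adjusted p were 0.0859, 0.0906 and 0.212, and the second Bub1 probe gave -0.03.

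Among 7 kinetochore and centromere genes, the one that passed was Spc24, a subunit of the Ndc80 complex that holds microtubules. That share (14.3%) was near the 15.7% of all genes. Spc24 signal was 9.18, 8.72, 9.09, 10.15 and 10.14 in Mes lines and 8.41, 8.94, 8.42, 8.57 and 8.22 in Epi lines. Mes4 and Mes5 stood about 1 unit above the other Mes lines, and Mes2 lay below Epi2. Its difference of 0.94 ± 0.29 (SE, adjusted p = 0.0359) did not pass when any 1 of Mes4, Mes5, Epi1, Epi3, Epi4 or Epi5 was left out (adjusted p up to 0.0797). The other 3 subunits of that complex did not pass. Spc25 averaged 10.75 ± 0.41 in Mes and 10.19 ± 0.25 in Epi lines, Ndc80 itself 10.16 ± 0.14 and 9.74 ± 0.32, and Nuf2 12.20 ± 0.33 and 12.25 ± 0.28 (SD, n = 5 each, adjusted p = 0.0722, 0.0922 and 0.876). Of the centromere proteins, Cenpf averaged 12.58 ± 0.34 and 12.12 ± 0.28, the kinetochore motor Cenpe 13.77 ± 0.17 and 13.59 ± 0.19, and the centromeric histone Cenpa 10.59 ± 0.41 and 10.51 ± 0.27, with adjusted p of 0.107, 0.362 and 0.795.

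Of 4 genes that control anaphase, Espl1, which encodes separase, passed, and narrowly (25%, beside 15.7% of all genes). Espl1 signal was 10.75, 10.54, 10.36, 10.52 and 11.09 in Mes lines and 9.98, 10.62, 9.87, 10.11 and 9.64 in Epi lines, with Epi2 above 3 Mes lines. Its difference was 0.61 ± 0.20 (SE, adjusted p = 0.0487). It did not pass when any 1 line other than Epi2 was left out (adjusted p up to 0.108), and on slide 2 it was -0.18. Cdc20, the activator of the anaphase-promoting complex on which the checkpoint acts, averaged 14.38 ± 0.38 in Mes and 13.58 ± 0.59 in Epi lines (SD, n = 5 each). Its difference of 0.80 was larger than that of several genes that passed but missed the threshold (adjusted p = 0.0612). Epi2 was 14.56, the other Epi lines 13.20 to 13.69, and without Epi2 the adjusted p was 0.00717. All Epi lines left in that fit were on slide 1 and no Mes line was, so slide and group cannot be told apart. On slide 2 the Cdc20 difference was -0.04. Pttg1 (securin, the inhibitor of separase) averaged 14.38 ± 0.35 and 14.21 ± 0.20, and Fbxo5 (Emi1, an inhibitor of the anaphase-promoting complex) 11.01 ± 0.35 and 11.16 ± 0.36, with adjusted p of 0.527 and 0.639.

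Of 7 genes of condensin and chromosome structure, 5 (71.4%, beside 15.7% of all genes) were higher, with a median difference of 0.62. Condensin I compacts mitotic chromosomes with a pair of Smc ATPases and 3 further subunits. Smc2 gave 11.38, 11.22, 11.76, 11.57 and 11.52 in Mes lines and 11.39, 10.96, 10.34, 9.99 and 9.67 in Epi lines. Here Epi1 lay within the Mes range and the other Epi lines, Epi2 included, below it. Its difference was 1.02 ± 0.30 (SE, adjusted p = 0.0296). Smc2 did not pass when any 1 of Mes3, Mes4, Mes5, Epi3, Epi4 or Epi5 was left out (adjusted p up to 0.0713), and 2 of its 4 probes passed. Smc4, the other ATPase, gave 12.73, 12.75, 13.12, 13.28 and 13.05 against 12.30, 12.74, 12.40, 12.18 and 12.21, with Epi2 level with Mes1 and Mes2. Its difference was 0.62 ± 0.16 (SE, adjusted p = 0.0175), and both probes passed.

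Ncapg, a subunit specific to condensin I, gave 12.99, 12.71, 13.24, 13.22 and 13.00 in Mes lines and 12.62, 12.76, 12.20, 12.39 and 12.15 in Epi lines, with Mes2 below Epi2. The Ncapg difference was 0.61 ± 0.16 (SE, adjusted p = 0.0205). Ncaph, the kleisin that closes the condensin I ring, gave 9.94, 10.02, 10.47, 10.74 and 10.56 against 9.51, 9.94, 9.79, 9.76 and 9.36, with Mes1 just above Epi2. Its difference was 0.68 ± 0.19 (SE, adjusted p = 0.0240) and on slide 2 it was 0.67. Ncapg did not pass when any 1 of Mes3, Mes4, Epi3 or Epi5 was left out (adjusted p up to 0.0541), nor did Ncaph for Mes3, Mes4, Mes5 or Epi5 (up to 0.0582). The fifth subunit, Ncapd2, averaged 13.62 ± 0.30 and 13.45 ± 0.37 (SD, n = 5 each) and did not pass (adjusted p = 0.574).

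Top2a encodes topoisomerase II alpha, which untangles sister chromatids. Top2a signal was 11.70, 11.32, 11.78, 11.86 and 11.76 in Mes lines and 11.05, 11.62, 10.79, 10.98 and 10.55 in Epi lines, with Epi2 above Mes2. Its difference was 0.69 ± 0.20 (SE, adjusted p = 0.0283), and it did not pass when any 1 of Mes3, Mes4, Mes5, Epi3, Epi4 or Epi5 was left out (adjusted p up to 0.0689). Mki67, the gene of Ki-67, which coats mitotic chromosomes and is widely used as a marker of dividing cells, gave 14.26, 13.66, 14.64, 14.02 and 13.98 against 14.05, 13.91, 13.81, 13.69 and 13.34. Mes2 was lower than 4 of the 5 Epi lines, and the difference of 0.35 ± 0.20 (SE) did not pass (adjusted p = 0.217).

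Of 7 spindle motors and microtubule binding proteins, 2 were higher (28.6%, beside 15.7% of all genes). Kif23 (MKLP1) is the kinesin of centralspindlin, which bundles the microtubules of the midzone. Kif23 signal was 11.25, 11.49, 11.73, 11.71 and 11.63 in Mes lines and 10.17, 11.04, 10.22, 9.94 and 9.80 in Epi lines. No Epi line reached the lowest Mes line, and Epi2 was the nearest. The difference was 1.33 ± 0.23 (SE, adjusted p = 0.0027), or 2.51-fold, and on slide 2 it was 0.68. All 3 of its probes passed, but the dimmest was above background on 5 Mes arrays and 1 Epi array. That probe entered the test only through the group where it was high. Kif2c (MCAK), which takes microtubules apart at centromeres, gave 9.36, 8.96, 9.25, 9.27 and 9.29 against 8.37, 8.87, 8.59, 8.27 and 8.05. Mes2, the lowest Mes line, was just above Epi2, and the difference was 0.80 ± 0.17 (SE, adjusted p = 0.0070). Tpx2, an activator of Aurora A on the spindle, averaged 12.59 ± 0.35 and 11.92 ± 0.42 (SD, n = 5 each) and missed the threshold (adjusted p = 0.0569).

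The other 4 genes of this role had differences of 0.11 to 0.52 that did not pass. Nusap1 averaged 11.86 ± 0.40 and 11.34 ± 0.49, and Kif20a (MKLP2), a kinesin of the midzone, 13.83 ± 0.53 and 13.53 ± 0.32. Prc1, which crosslinks midzone microtubules, averaged 13.16 ± 0.28 and 12.91 ± 0.48. Kif11 (Eg5), the kinesin that separates the spindle poles, averaged 9.64 ± 0.42 and 9.53 ± 0.32 (SD, n = 5 each), and its 3 probes did not share a sign. Of 3 cytokinesis genes, Anln passed (33.3%, beside 15.7% of all genes). Anln encodes anillin, a scaffold of the contractile ring. Anln signal was 9.66, 9.15, 9.44, 9.55 and 9.74 in Mes lines and 8.63, 9.53, 8.54, 8.30 and 8.08 in Epi lines, with Epi2 above Mes2 and Mes3. Its difference of 0.89 ± 0.25 (SE, adjusted p = 0.0249) did not pass when any 1 of Mes4, Mes5, Epi3, Epi4 or Epi5 was left out (adjusted p up to 0.0613), and on slide 2 it was -0.03. Ect2, which activates RhoA at the cleavage site, averaged 12.30 ± 0.44 and 11.97 ± 0.34, and Racgap1, the partner of Kif23 in centralspindlin, 10.76 ± 0.40 and 10.78 ± 0.34, with adjusted p of 0.334 and 0.952.

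**Figure D3:**
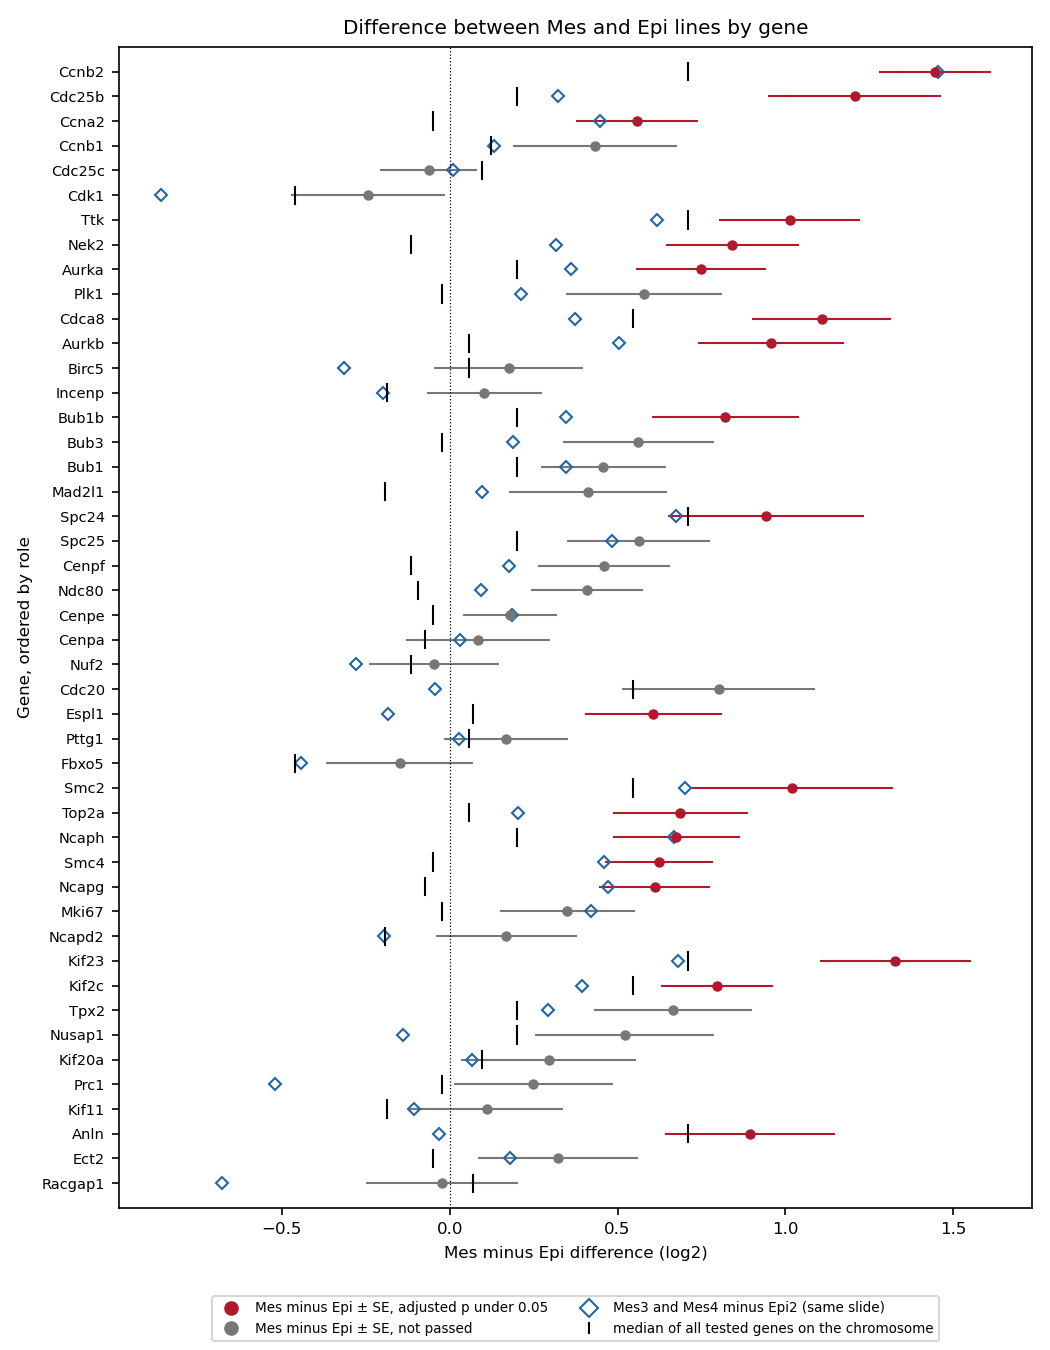
Mes minus Epi difference (log2, horizontal axis) of each of the 46 genes in order of role. Filled points with whiskers are the limma difference and its SE, red where the adjusted p was under 0.05, open diamonds are the difference on slide 2, and black ticks are the median of all tested genes on the chromosome of the gene. Most diamonds lie to the left of the points, and the genes with differences over 1 include Ccnb2, Ttk and Kif23, whose chromosome median is 0.71.

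Lines differed within each group. Of the 46 genes, 43 lay above their own mean in Mes4 and in Mes5, 41 in Mes3, 31 in Mes1 and 22 in Mes2, against 38 in Epi2, 11 in Epi3, 9 in Epi1, 5 in Epi4 and 0 in Epi5. The mean deviation of the 46 genes from their own means was 0.12, -0.02, 0.34, 0.45 and 0.44 in Mes1 to Mes5 and -0.30, 0.22, -0.24, -0.39 and -0.62 in Epi1 to Epi5. Epi2 thus lay above Mes1 and Mes2, while the other Epi lines lay below all Mes lines. The mean deviation over all genes stayed between -0.04 and 0.02 in every line. Epi2 was the highest Epi line for 41 of the 46 genes and a median of 0.60 above the other Epi lines. Epi5 was the lowest Epi line for 34 and the lowest of all 10 lines for 28, and Mes2 was the lowest Mes line for 28.

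The calls rested on these lines to different degrees. Without Epi2, 26 of the 46 genes passed, with Plk1, Bub3, Ndc80, Cenpf, Cdc20, Tpx2 and Nusap1 added to the 19, where 16.6% of all genes were higher. Every Epi line left was then on slide 1 and every Mes line on slide 2 or 3. In that fit, too, slide and group cannot be told apart. In the same 9 lines 23 of the 46 had every Mes line above every Epi line, against 14.6% of all genes. Epi2 was the highest Epi line for 41 of these genes, so a rise of this count without it was built in. Leaving out any other line gave 7 to 13 of the 46, and the share of all genes was not counted there. Without Mes4 or Epi5, 11 passed (12.6% and 12.3% of all genes were higher), and without Mes5 or Epi3, 12 (14.3% and 11.3%). Calls that held whichever line was left out numbered 11 (Ccnb2, Kif23, Cdc25b, Cdca8, Ttk, Aurkb, Nek2, Bub1b, Kif2c, Aurka and Smc4). The share of calls over all genes that held in this way was not counted. With all 3 lines of slide 2 left out, 14 passed, 13 of them among the 19, and 8.26% of all genes were higher. In that fit the Epi lines were all on slide 1 and the Mes lines all on slide 3, so slide and group cannot be told apart. When Mes2 with Mes3, and Epi3 with Epi4 and Epi5, were each averaged into 1 value, Ccnb2 was the one gene of the 46 that passed (adjusted p = 0.0159). By the same adjusted threshold 4.55% of all genes were higher. At an unadjusted p under 0.05, 17 of the 46 were higher, and the share of all genes was not counted there. The spread within groups was like that of other genes, with a median SD of 0.32 in Mes and 0.34 in Epi lines against 0.32 and 0.30 over all genes.

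**Figure D4:**
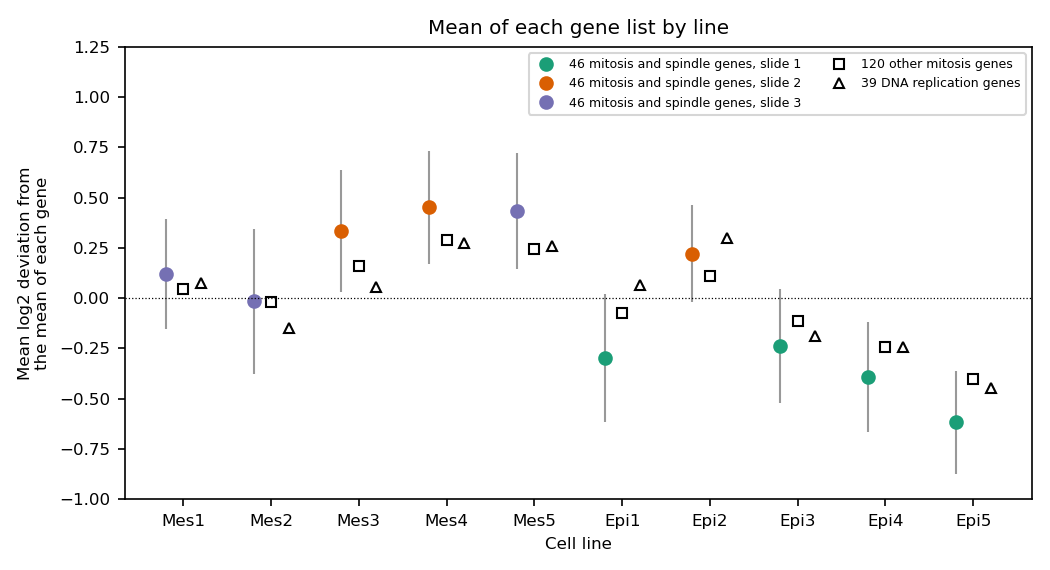
Mean log2 deviation of a gene list from the mean of each gene (vertical axis) in each line. Filled circles are the 46 mitosis and spindle genes with the SD over genes as whiskers, coloured by slide, open squares are 120 other mitosis genes and open triangles 39 DNA replication genes. Mes4 (0.45) is highest and Epi5 (-0.62) lowest for the 46 genes, and Epi2 lies above the other Epi lines for all 3 lists.

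The genes tested on some chromosomes were shifted as a whole, and several mitosis genes lie there. The median difference over all genes was 0.71 on chromosome 9, 0.55 on chromosome 4 and -0.46 on chromosome 10. All 5 mitosis genes of chromosome 9 (Ccnb2, Kif23, Ttk, Spc24 and Anln) were higher in Mes lines, where 58.1% of the 752 genes tested on that chromosome were. Their median was 1.01, which is 0.30 above the chromosome. On chromosome 4, 3 of 4 were higher (Cdca8, Smc2 and Kif2c, with Cdc20 not passing) and 43.6% of all 821 genes tested there. The median of the 4 was 0.91, which is 0.36 above the chromosome. Both genes of chromosome 10, Cdk1 and Fbxo5, had differences below 0, -0.24 and -0.15, which are above the median of that chromosome. Of the 35 genes on other chromosomes, 11 (31.4%) were higher and 0 lower, with a median of 0.46, and 11.4% of all genes on those chromosomes were higher. After the median of its chromosome was subtracted from each gene, the median over the 46 was 0.37. Each of the 19 differences stayed above 0, from 0.18 for Anln to 1.01 for Cdc25b. For Anln (0.18) and Spc24 (0.23) what was left was smaller than the SE of the difference (0.25 and 0.29). The part of the chromosomes in these differences was not tested.

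**Figure D5:**
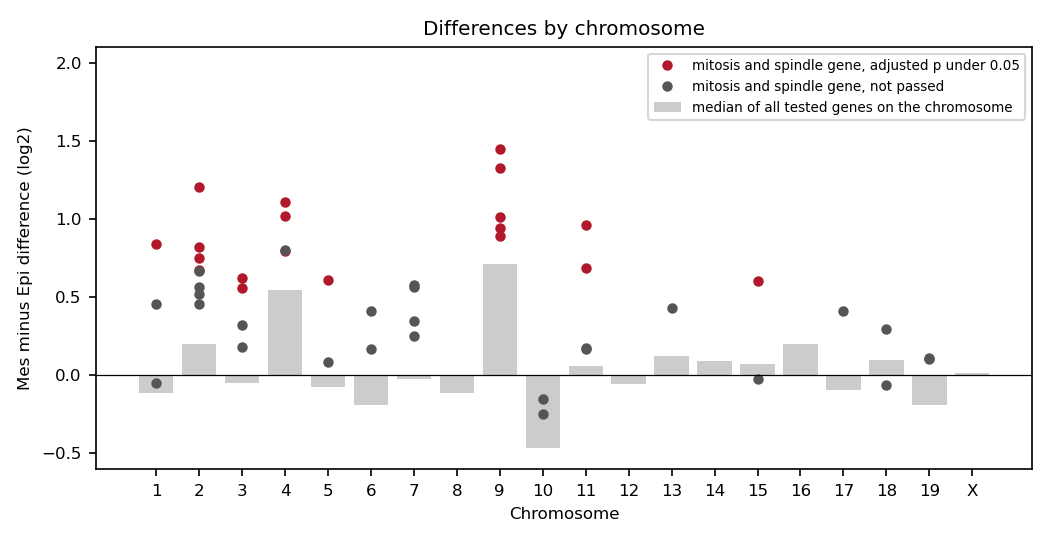
Mes minus Epi difference (log2, vertical axis) by chromosome. Grey bars are the median of all tested genes on the chromosome and points the mitosis and spindle genes, red where the adjusted p was under 0.05. The tallest bars are those of chromosome 9 (0.71), whose 5 points are all red, and chromosome 4 (0.55), and the lowest is that of chromosome 10 (-0.46).

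A wider list of 124 other mitosis genes, 120 of them on the array and tested, had a smaller median difference. Of these, 28 (23.3%, beside 15.7% of all genes) were higher in Mes lines and 1 (0.833%, beside 12.7%) was lower, with a median difference of 0.30. The 5 largest differences were those of Ncapd3, a condensin II subunit (1.75 ± 0.22), Zwilch and Zw10, which bring dynein and checkpoint proteins to the kinetochore (1.32 ± 0.18 and 1.11 ± 0.16), Stag1, a cohesin subunit (1.05 ± 0.17), and the kinase Melk (1.04 ± 0.22, SE). Ncapd3, Zwilch, Zw10 and Stag1 lie on chromosome 9 and Melk on chromosome 4, and their adjusted p ran from 0.00079 to 0.0079. Cenpt, a centromere protein that links DNA to the Ndc80 complex, was the one gene that passed as lower (-0.51 ± 0.15, adjusted p = 0.0307).

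By group of function, 6 of 16 genes (37.5%) were higher in the list of cohesin, its regulators and condensin II, 6 of 21 (28.6%) for mitotic entry and its transcription factors and 8 of 32 (25.0%) for the kinetochore and checkpoint, where Cenpt was lower. For the anaphase-promoting complex and its E2 enzymes 3 of 16 (18.8%) were higher and for other kinesins and spindle proteins 5 of 35 (14.3%), both near the 15.7% of all genes. On chromosomes 4 and 9, 8 of the 11 listed genes there were higher, where 50.5% of all genes were. On chromosomes other than 4, 9 and 10, 20 of 105 were higher, where 11.4% of all genes were. Of 39 DNA replication genes, 6 (15.4%) were higher, beside 15.7% of all genes, and 1 was lower, with a median of 0.22. Their mean deviation was 0.07, -0.15, 0.06, 0.28 and 0.26 in Mes1 to Mes5 and 0.06, 0.30, -0.19, -0.24 and -0.45 in Epi1 to Epi5. Epi2 was the highest line for these genes and Epi5 the lowest, and Epi1 lay above Mes2 and Mes3, unlike for the 46 mitosis genes.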

How the data were processed

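The deposited scanner files give 1-colour Agilent intensity values from Feature Extraction 10.7 (10.7.3.1 per the file headers), background-subtracted within each array and not scaled between arrays. The authors also deposited log2 values, quantile-normalized per the series text, which served as an alternative, while gene names came from their annotated log2 table, of which 20 per-sample columns were not used. Control spots (1639) and flagged outlier spots (46 to 87 per array) were left out, and spots of a probe were averaged to 41174 probes. Processed intensities were quantile-normalized with a floor of 1 and put on a log2 scale. Probes well above background on all 5 arrays of a group (24475) were tested for Mes minus Epi without covariates in limma 3.58.1 under R 4.3.3 (lmFit, then eBayes), and p-values were adjusted over all of them by the Benjamini-Hochberg method. The procedure was also tested on simulated data.

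All 19 genes that passed and Cdk1, Ccnb1, Plk1 and Mki67 were named with values in all lines and the others with group means, and of the other mitosis genes the up to 5 largest per direction among those that passed were named. The members and lists were chosen with earlier results of these data known. Of 46 genes, 38 matched the RefSeq promoter table. Replicate numbers did not pair the lines (correlations of same-numbered deviations 0.014 to 0.0434). Alternatives covered scaling, background correction with normexp (offset 50, on median intensities), filters, floor, slide and replicate as blocks (statmod 1.5.0), probe means and left-out lines. The number of arrays limits the precision.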

Additional observations from a re-analysis of the deposited data

Results flagged for a closer look

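Of 92 sets of 5 values (46 genes in each group), 6 (6.52%) held a line far from the other 4, measured as the gap to the nearest line over the range of the group, where chance alone gives about 1 in 20. Cdc25b in Epi2 was 12.29 against 11.22 in the nearest Epi line, a gap of 0.904 of the range. Aurka in Mes1 was 13.47 against 13.92 in the nearest Mes line, and Tpx2 in Mes1 11.99 against 12.62. In Mes2, Cenpa was 9.86 against 10.70 and Kif2c 8.96 against 9.25. Racgap1 in Mes5 was 11.46 against 10.72.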

How the results depend on the processing

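Of the 46 genes, 19 were higher and 0 lower. The count of higher genes was 17 with 75th percentile scaling, where 14.5% of all genes were higher. It was 18 with normexp (14.7% of all genes) and with a floor of 16 (15%). It was 19 with the deposited log2 values (15.8%), with probes above background on all 10 arrays (15.4%) and with probe means (15.5%). Without the filter on dim probes it was 15 (13.2%), and with slide as a random block 21 (17.5%, correlation -0.0434). It fell to 0 with slide as a fixed block (0.47% of all genes) and to 1 with closely correlated lines averaged (4.55%). With the replicate number as a replicate block it was 12 (12.5%), and it ran from 11 to 26 with a line left out (11.3% to 17.1% of all genes). The 26 came without Epi2, where all Epi lines left were on slide 1 and no Mes line was. On slide 2 alone, which holds 1 Epi line, 33 of the 46 differences were positive, with a median of 0.19. Leaving out slide 2, chosen after seeing the data, gave 14 (8.26% of all genes), in a fit where slide and group cannot be told apart. No setting run called a gene lower, and at an unadjusted p under 0.05 each also gave 0. Espl1 and Anln turned to -0.184 and -0.032 with the slide block and on slide 2 alone, where the cause was not tested. Of the other mitosis genes, the 28 higher became 1 with the slide block, 4 with lines averaged and 13 without slide 2. With a line left out they became 15 to 45 (15 without Epi5, 16 without Mes4 or Epi4, 17 without Mes3, 45 without Epi2). Without Epi2, slide and group cannot be told apart. The shares of all genes higher in these settings are those given above. The 1 lower became 2 with 75th percentile scaling, normexp or a floor of 16, 3 with probe means, 0 with the slide block, slide 2 alone, the replicate block, lines averaged or slide 2 left out, and 0 to 2 with a line left out. Slide 2 alone and the averaged lines rest on fewer samples.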
